A study of Mus musculus with 6 samples.

Results

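Mouse ESCs in which Snail had been switched on for 12 hours were compared with cultures of the same line in which it had been on for 24 hours. The pair is 2 of the 6 arrays of the series, chosen by their labels (dox added at day 2, RNA taken at day 2.5 or day 3), and the comparison covers 14755 of the 18193 genes measured, namely those above a low-signal limit on at least 1 array. The cells were A2.Snail cells, a single line of A2lox ESCs carrying a Snail transgene under a doxycycline (dox) inducible promoter. Both cultures were differentiated in suspension in medium with fetal calf serum and with the Wnt inhibitor DKK, and both received 250 ng/mL dox at day 2 (DKK + dox). DKK cultures without dox were taken at the same 2 times and serve as the background over the same interval, and the 6 hour arrays (day 2.25) are given where they help to read a level. Such cultures are mixtures, and in bulk RNA fewer cells of a type and less RNA per cell cannot be told apart.

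Snail is a zinc finger repressor that binds E-box sequences in promoters of epithelial genes such as Cdh1 (E-cadherin), and it acts when cells of the epiblast leave the epithelium and form mesoderm at gastrulation. Mesoderm that carries the VEGF receptor Flk1 (Kdr) goes on to blood and endothelium, and ETS family transcription factors, with Etv2 at the top, direct that step. Other mesoderm, marked by Pdgfra, goes on to heart, muscle and connective tissue.

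Each time was a single array, so no difference has a replicate check and none was tested. Sizes are given as 24 hours minus 12 hours on the scale log2(intensity + 20.6), which understates the change of low genes, and a gene was counted from 2-fold (1 on this scale). Intensities are the deposited linear values, whose lowest value is 1, and values up to 37.2 are called low signal. The median difference over all genes was 0.03 in DKK + dox and 0.01 in DKK, so the arrays were near level at the median. This does not show that they were level at every intensity, and counts after other scalings are given below. Genes that define pluripotent cells were strongly expressed at both times, with Pou5f1 (Oct4) at 6675 and 5672 and Sox2 at 4574 and 4742. The probe set of Snai1 read 18.8 at 12 hours and 14.5 at 24 hours in DKK + dox and 16.6 and 10.9 in DKK, all low signal, so it does not check the induction.

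Between 12 and 24 hours of Snail, 235 genes were at least 2-fold higher (1.59 percent of those compared) and 123 at least 2-fold lower (0.834 percent). In DKK, 63 genes were at least 2-fold higher over the same hours (0.427 percent) and 52 at least 2-fold lower (0.352 percent). Counted both ways, that is 358 genes with Snail and 115 without it. Among the 3330 genes whose highest intensity over the 6 arrays exceeded 1000, the counts were 16 higher and 15 lower with Snail, against 0 higher and 7 lower without. With Snail more genes were higher than lower over all genes compared, while the counts were near even among these strongly expressed genes. The excess was smaller after quantile scaling (195 higher and 146 lower) and with the arrays centred on their medians (212 and 147).

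Few of these genes were past 2-fold in the same direction in DKK, but their share was above that over all genes. Of the 235 higher genes, 8 were also at least 2-fold higher in DKK (3.4 percent of the 235 and 12.7 percent of the 63). Another 4 were at least 2-fold lower there. Of the 123 lower genes, 9 were at least 2-fold lower there (7.32 percent of the 123 and 17.3 percent of the 52), and 5 higher. Over all genes compared, 0.427 percent were at least 2-fold higher in DKK and 0.352 percent lower. The median difference of the 235 genes in DKK was 0.11, and that of the 123 genes was -0.07. Many of the lower genes stood at the edge of what the arrays measure: 72 of the 123 were at low signal at 24 hours, 15 of them at the lowest value, while 86 of the 235 higher genes were at low signal at 12 hours, 18 of them at the lowest value. Of the higher genes, 79 went from low signal to above it, and 38 of these, with the endothelial genes Cdh5 and Erg, were at low signal in both DKK arrays. Of the lower genes, 66 went the other way, 25 of them at low signal in both DKK arrays. Apart from the 6 hour arrays, the 38 and the 25 exceeded the limit only on the array where they were high. The filter itself selects such genes, so their low signal elsewhere is no separate result. Cdh5 was kept through the DKK + dox array at 24 hours alone. With both DKK + dox arrays above low signal, a condition set after seeing the data, the counts were 149 higher and 51 lower.

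**Figure D1:**
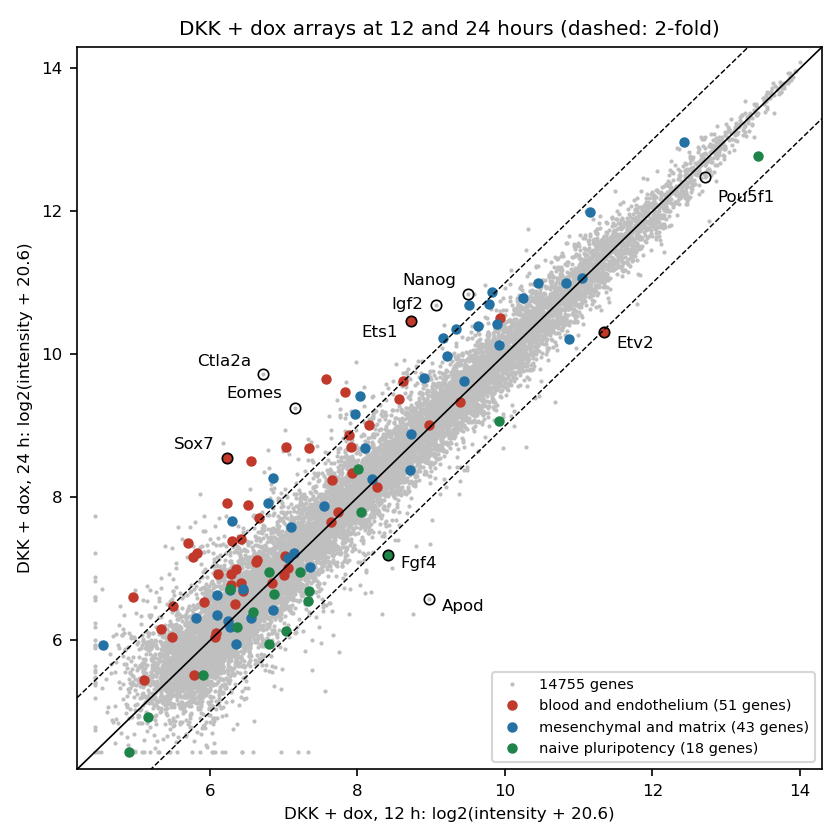
Each point is 1 of 14755 genes, with log2(intensity + 20.6) in DKK + dox at 12 hours on the horizontal axis and at 24 hours on the vertical axis; the solid line marks equal values, the dashed lines 2-fold, colours mark 3 gene lists and rings the labelled genes. Genes of blood and endothelium lie mostly above the solid line, with 17 of 51 at or past the upper dashed line and Etv2 at the lower one.

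Of the 15 largest increases, 7 were above low signal at both times, and Ctla2a led them. This gene, which encodes a cysteine protease inhibitor, read 85.2 at 12 hours and 827 at 24 hours (difference 3.00), and its neighbour and close relative Ctla2b read 54.6 and 366 (2.36); probes of such close copies can share signal. In DKK both stayed within 2-fold, Ctla2a at 76.7 and 89.2 and Ctla2b at 51.2 and 63.2. Nrcam, a neuronal cell adhesion molecule, went from 51.7 to 413 (2.58) and stood at 83.3 and 117 in DKK. Hapln1, which links hyaluronan to proteoglycans in the matrix, went from 37.5 to 245 (2.19) and stood at 15.3 and 1.89 in DKK. The endoderm and vascular factor Sox7, the T-box factor Eomes and the adrenomedullin coreceptor Ramp2 were the others, and they are described with their groups. Tagln3, also among the 15, read 2.51 and then 84.4.

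The other 7 of the 15 largest increases rested on a single low reading at 12 hours. Rasal1 (difference 3.30), Teddm2 (2.79), Scn2a (2.46), Adam28 (2.40), Gpr84 (2.18), Dmrt3 (2.18) and C330024D21Rik (2.13) all read 1 in DKK + dox at 12 hours. Rasal1, a Ras GTPase activating protein, read 223 in DKK + dox at 6 hours, 1 at 12 hours and 193 at 24 hours, and 199, 142 and 126 in DKK. Teddm2 read 68.6, 1 and 128, with 76.2, 61.1 and 39.5 in DKK. For these 7 genes the DKK + dox array at 12 hours stood apart from the other 5, which read from 33.6 to 223. Scn2a (0.71), Dmrt3 (0.40) and C330024D21Rik (0.91) were under 2-fold with the mean of all probe sets of a gene.

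**Figure D2:**
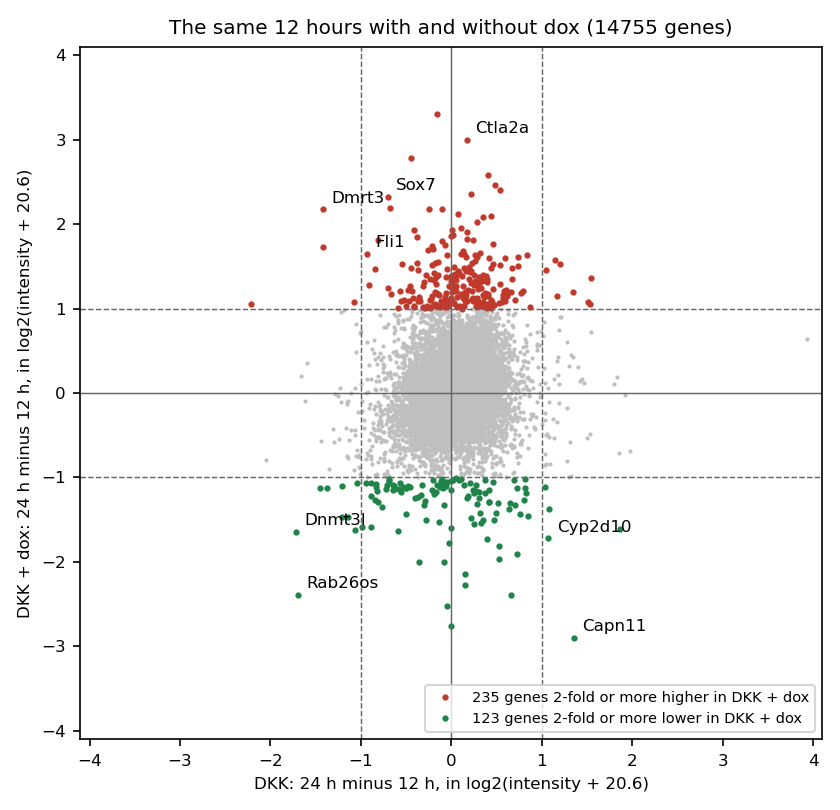
Each point is a gene, with its difference between 24 and 12 hours in DKK on the horizontal axis and in DKK + dox on the vertical axis, both in log2(intensity + 20.6); red and green mark the 235 and 123 genes at least 2-fold higher or lower in DKK + dox, and dashed lines mark 2-fold. The coloured points gather around 0 on the DKK axis, where their medians were 0.11 and -0.07.

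By count, blood and endothelium, also the longest of the 26 lists, had the most genes past 2-fold. By share it was close to 2 lists described below, parietal endoderm (4 of 13) and the genes around Hprt (2 of 6). The lists were chosen with earlier results of these data known. Of 62 listed genes, 61 had a probe set and 51 were above low signal; 17 of the 51 were at least 2-fold higher, 1 was at least 2-fold lower and 33 were neither, and 43 had a difference above 0. After quantile scaling, 40 of the 51 were above 0. The 17 include Cdh5 and Erg, which among the 12 and 24 hour arrays exceeded low signal only in DKK + dox at 24 hours. Over all genes compared, 1.59 percent were at least 2-fold higher and the median was 0.03. The median difference was 0.64 in DKK + dox and -0.03 in DKK, where 0 were at least 2-fold higher and 1 lower, and with the 10 low-signal members included it was 0.59. With the mean of all probe sets of a gene, in place of the single one used here, 12 of 51 were at least 2-fold higher. The 20 receptors and surface proteins had a median of 0.90 with 9 past 2-fold, the 23 transcription factors 0.60 with 6 higher and 1 lower, and the 8 secreted or intracellular proteins 0.53 with 2.

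The transcription factors split in their timing. Etv2, the ETS factor that starts the hemato-endothelial programme, read 498 at 6 hours, 2572 at 12 hours and 1257 at 24 hours in DKK + dox, a difference of -1.02 over the interval, and 354, 640 and 389 in DKK. It was the single member at least 2-fold lower. Further ETS factors, which act in endothelium and early blood, went the other way. Ets1 read 110, 401 and 1400 at the 3 times (difference 1.75) and 73.0, 106 and 101 in DKK. Fli1 read 11.1, 206 and 693 (1.65) and 10.6, 58.4 and 20.9 in DKK. Erg was at low signal until 24 hours, with 10.5 at 12 hours and 76.9 at 24 hours (1.65). Etv2 was highest at 12 hours in DKK as well. These ETS genes were named for passing 2-fold in this pair, so the order of Etv2 before the others is no separate result. In DKK + dox at 24 hours Ets1 and Fli1 stood at their highest of the 6 arrays. Erg was also highest there, but it was at low signal on the other 12 and 24 hour arrays. The filter keeps such genes through the array where they are high, so Erg adds nothing to this order. Ets1 has 3 more probe sets: 1 read 245 and 1213 (2.22), and 2 weaker ones read 50.0 and 117 (0.96) and 49.0 and 86.3 (0.62), both short of 2-fold. A second Fli1 probe set read 52.0 and 242.

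Among the remaining regulators, Sox7 and Sox17 were both past 2-fold; they are SOXF genes, which act in endothelial specification and also in endoderm. Sox7 read 276 at 6 hours, 54.5 at 12 hours and 356 at 24 hours (2.33), while in DKK it went from 272 to 53.9 and 25.1. Sox17 read 239, 142 and 393 (1.35), and 307, 97.3 and 79.9 in DKK. At 24 hours both were above their 6 hour level with Snail and under it in DKK. Some endoderm markers also fell after 6 hours in DKK + dox and stayed lower. Cubn read 395, 72.7 and 114, and Lama1 230, 49.3 and 60.2. Others did not fall from 6 to 12 hours, such as Hnf4a (50.7 and 49.6) and Col4a1 (549 and 554). Whether the same cells gave the 6 and 24 hour values of Sox7 and Sox17 was not tested. Sox18, the third SOXF gene, picked out after its values were seen, was nearer level with 222 and 305 (0.42). Mecom (Evi1), a regulator of blood stem cells, went from 110 to 398 (1.68), against 78.0 and 86.9 in DKK. The blood regulators Tal1, Gata2 and Lmo2, also picked out after their values were seen, read 221 and 395 (0.78), 359 and 646 (0.81), and 479 and 497 (0.05), and none was past 2-fold. The other probe sets of Mecom and Sox7 were at low signal and did not show the increase: those of Mecom read 24.1 and 24.7, and 1.17 and 1, and that of Sox7 read 33.9 and 17.3. Averaged over all probe sets, Mecom was at 0.56 and Sox7 at 0.90, both under 2-fold.

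Receptors and surface proteins of the vascular system made up 9 of the 17 higher genes. Kdr read 60.5, 371 and 771 at 6, 12 and 24 hours (difference 1.02 over the interval) and 77.5, 99.3 and 89.4 in DKK. Kdr is at the edge of the 2-fold count: it was at 0.94 after quantile scaling, 0.97 with the arrays centred on their medians and 0.99 with a larger offset. Ramp2 and Calcrl together form the adrenomedullin receptor, a vascular peptide receptor; Ramp2 went from 170 to 788 (2.08) and Calcrl from 73.1 to 343 (1.96), while in DKK they stood at 90.3 and 121, and 20.0 and 23.4. Aplnr, the apelin receptor of migrating mesoderm, went from 54.2 to 222 (1.70). Cdh5 (VE-cadherin), the defining junction protein of endothelium, went from low signal at 31.6 to 145 (1.66), with 20.0 and 29.8 in DKK. The other members past 2-fold, named after their values were seen, were Kit, Plxnd1, Angpt1, Esam, Vegfc and Nrp1, with differences from 1.01 to 1.40. For Calcrl and Cdh5, another probe set at or near low signal did not show the increase: it read 7.12 and 1 for Calcrl, and 36.2 and 20.8 for Cdh5. A further Calcrl probe set, also at low signal, did rise, from 1 to 28.9 (1.20). Averaged over all probe sets, Calcrl was at 0.93 and Cdh5 at 0.60, both under 2-fold.

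The other fixed markers of endothelium and blood stayed at low signal or level. The endothelial genes Pecam1 and Tie1 read 7.92 and 25.2 (0.68), and 1 and 18.9 (0.87), all low signal. The paper also counts Pecam1 among the markers of full pluripotency. The embryonic globin Hbb-bh1 read 13.4 and 30.6 and the red cell factor Klf1 18.5 and 1.41, also low signal, and Gata1 was level at 46.3 and 45.3.

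Kdr and Calcrl are shown with the bases before their start sites, since both were higher at 24 hours and both carry the ETS core GGAAG there. Sequences are from RefSeq promoters of assembly GRCm38.p6, the 250 bases before the annotated start, 5′ to 3′ on the strand of the gene. Capitals mark GGAAG on either strand (CTTCC where it is on the other strand). The first is chr5:75978456-75978705 and the second chr2:84425267-84425516, both on the minus strand.
Kdr: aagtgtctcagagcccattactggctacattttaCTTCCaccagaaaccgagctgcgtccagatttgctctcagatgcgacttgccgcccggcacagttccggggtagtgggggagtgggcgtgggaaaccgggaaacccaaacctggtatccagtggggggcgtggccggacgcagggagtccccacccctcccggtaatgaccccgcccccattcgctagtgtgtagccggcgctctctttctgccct
Calcrl: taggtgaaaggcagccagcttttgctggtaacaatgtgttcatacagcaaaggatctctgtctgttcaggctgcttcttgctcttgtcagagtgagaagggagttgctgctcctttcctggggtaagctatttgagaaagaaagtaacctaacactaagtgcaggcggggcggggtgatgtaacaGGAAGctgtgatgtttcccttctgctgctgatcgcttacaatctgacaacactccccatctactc
The match began 216 bases before the start of Kdr and 65 bases before that of Calcrl. The same 5 letters were found in the 250 bases of 107 of the 166 higher genes with a promoter in the table (64.5 percent). They were in 63 of the 96 lower genes (65.6 percent) and 18067 of all 27025 genes (66.9 percent). Of the genes compared, 8446 of 11807 with a promoter had them (71.5 percent). The match is thus common and was not more frequent among the higher genes.

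**Figure D3:**
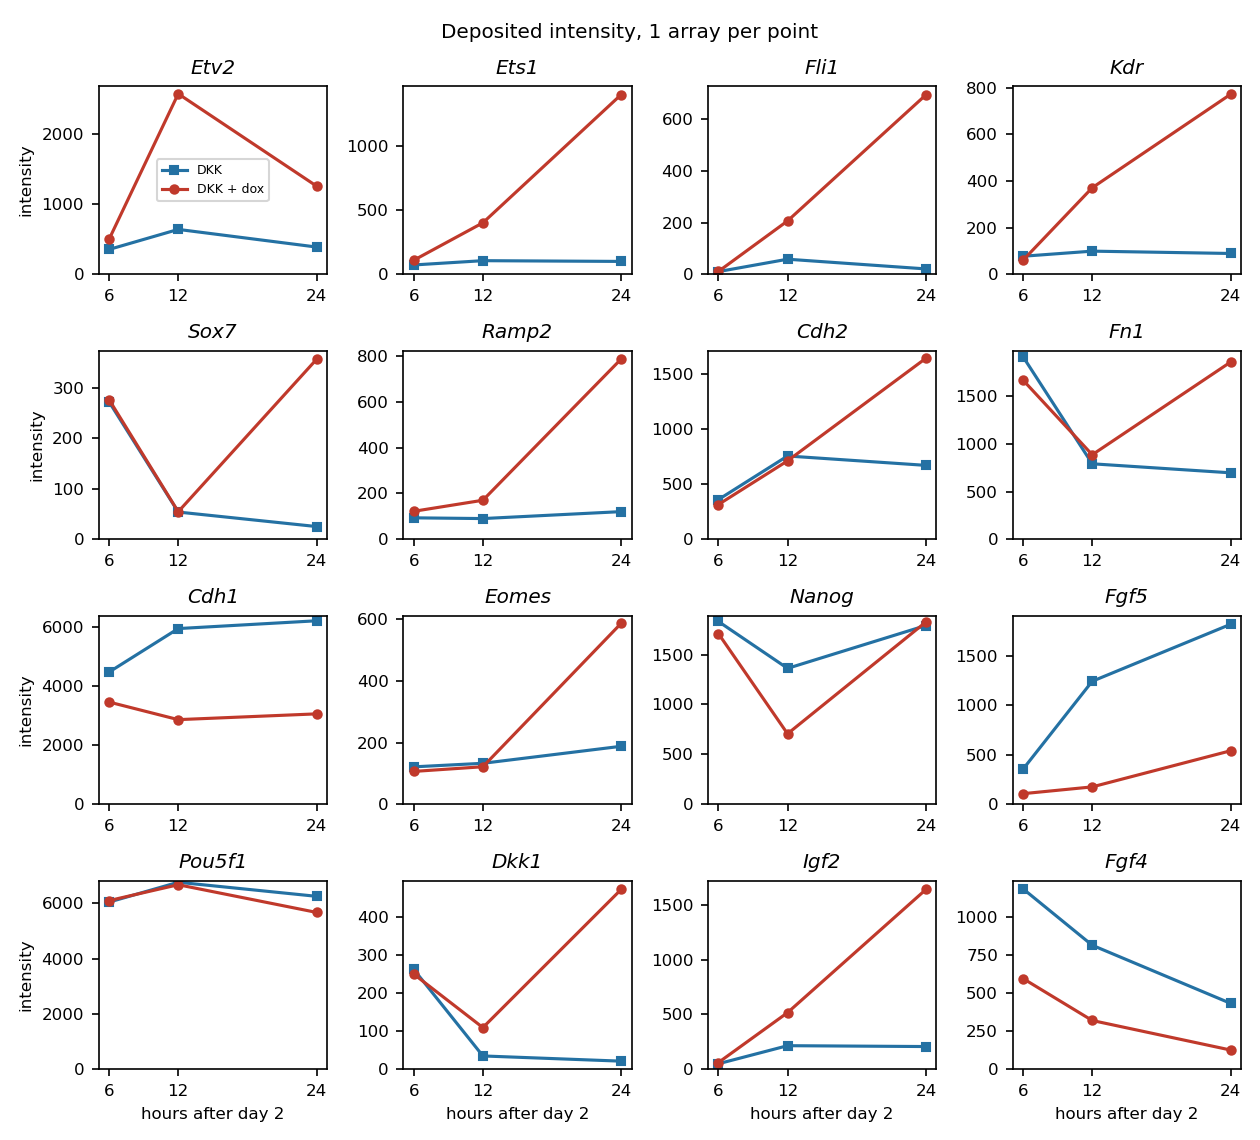
Deposited linear intensity of 16 genes at 6, 12 and 24 hours after day 2, 1 array per point, in DKK (blue squares) and DKK + dox (red circles), each panel starting at 0. Etv2 was highest at 12 hours in DKK + dox (2572), Ets1, Fli1 and Kdr at 24 hours, and Nanog reached 1827 with Snail and 1791 without it at 24 hours.

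Mesenchymal and matrix genes came next by count. Of 43 genes above low signal (46 with a probe set), 10 were at least 2-fold higher and 0 lower. A difference above 0 was found in 36 of the 43 (33 after quantile scaling). Over all genes compared, 1.59 percent were at least 2-fold higher and 0.834 percent lower, and these shares are the background for every list that follows. When all probe sets of a gene were averaged, 6 of 40 were at least 2-fold higher. The median was 0.50 in DKK + dox and -0.07 in DKK, where 0 passed 2-fold in either direction. The 10 collagens had a median of 0.39, the 19 matrix glycoproteins and enzymes 0.48, and the 14 adhesion and cytoskeletal genes 0.55.

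The N-cadherin gene Cdh2, which replaces E-cadherin in mesenchyme, read 710 at 12 hours and 1640 at 24 hours (1.18) and 754 and 669 in DKK. It thus parted from the DKK cultures within this interval. Fn1 (fibronectin) went from 886 to 1858 (1.05) and from 791 to 697 in DKK. The basement membrane collagens Col4a1 and Col4a2 went from 554 to 1184 (1.07) and from 240 to 662 (1.39), the fibrillar Col3a1 from 89.7 to 221 (1.13) and Col5a2 from 94.8 to 290 (1.43). Cdh11, a cadherin of mesenchyme, went from 230 to 555 (1.20), Pdgfrb from 58.4 to 183 (1.37) and Tnc (tenascin C) from 2.84 to 40.8 (1.39), the last close to low signal. Tgfbi, a secreted matrix protein, had already stood at 628 at 12 hours against 68.7 in DKK and went on to 1293 (1.02). A second probe set of Cdh2, of Fn1 and of Col4a1 gave 1.55, 1.06 and 1.03, while another probe set of Pdgfrb, at low signal, gave -0.17. Col3a1 (0.86), Cdh11 (0.90), Pdgfrb (0.60) and Tnc (0.99) were under 2-fold with the mean of all probe sets.

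Epithelial junction genes stayed close to their 12 hour level. Of 48 genes, 0 were at least 2-fold higher and 0 lower, with medians of 0.05 in DKK + dox and 0.17 in DKK. Cdh1 read 2868 and 3063 in DKK + dox (0.09) and 5957 and 6222 in DKK. The member with the largest change was Ap1m2, an epithelial sorting adaptor, at 253 and 120 (-0.96, and -1.02 after quantile scaling, past 2-fold), while it went from 444 to 653 in DKK. The claudin gene Cldn6, picked out after its values were seen, read 224 and 360 (0.64) in DKK + dox and 1393 and 2049 (0.55) in DKK. Its level with Snail thus stayed far under that of DKK at both times, yet its change over the interval was of like size in both. The 12 tight junction genes had medians of 0.27 and 0.23.

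Cldn6 is shown because its promoter carries CAGGTG, the E-box form that Snail binds, marked in capitals (either strand, no overlap with another motif searched). The sequence is chr17:23679115-23679364 of GRCm38.p6, plus strand, from RefSeq, again the 250 bases before the start, and the match began 93 bases before it.
Cldn6: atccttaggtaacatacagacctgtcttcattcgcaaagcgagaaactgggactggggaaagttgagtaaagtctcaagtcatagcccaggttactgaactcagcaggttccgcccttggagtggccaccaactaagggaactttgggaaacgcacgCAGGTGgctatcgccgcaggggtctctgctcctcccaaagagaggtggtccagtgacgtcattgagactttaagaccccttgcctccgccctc
Over this interval CAGGTG was in the promoters of 28 of 166 higher genes (16.9 percent), 30 of 96 lower genes (31.2 percent) and 5252 of all 27025 genes (19.4 percent). These shares are a description without a test, and most of the lower genes were at low signal at 24 hours.

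The transcription factors tied to EMT showed 1 of 13 genes past 2-fold, Ets1, with a median of 0.17 (-0.12 in DKK). Zeb1, a repressor of Cdh1, read 223 and 440 (0.92) and Sox9 382 and 745 (0.93), against 75.6 and 50.3, and 44.8 and 49.1, in DKK. Twist1 (327 and 440) and Zeb2 (354 and 400) were closer to level, and Snai2 (Slug) read 40.5 and 33.5. These 5 were picked out after their values were seen.

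Cardiac and lateral mesoderm genes changed in a few members. Of 38 genes above low signal (45 with a probe set), 4 were at least 2-fold higher and 0 lower, with medians of 0.16 in DKK + dox and 0.04 in DKK. The 4 were Actc1 (cardiac actin), from 89.8 to 385 (1.88), the forkhead factor Foxc1, from 72.9 to 256 (1.57), Acta2 (smooth muscle actin), from 196 to 549 (1.39), and the myogenic factor Mef2c, from 92.3 to 234 (1.17). In DKK these 4 lay between differences of -0.28 and 0.26. Other probe sets of Acta2 were at low signal and gave -0.17 and 0.73. Acta2 (0.65) and Mef2c (0.97) were under 2-fold with the mean of all probe sets. Pdgfra, the receptor of paraxial and cardiac mesoderm, read 66.8 and 148 (0.94), short of 2-fold, and 23.8 and 18.9 in DKK. Of the heart muscle markers, Nkx2-5 read 26.4 and 65.4 (0.87), and Tnnt2 (17.5 and 9.07) and Myl7 (27.0 and 13.8) were at low signal. Muscle actin genes were thus higher while the troponin and myosin markers of beating tissue stayed at low signal.

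Actc1 is shown because actin genes of muscle are known targets of SRF, whose CArG box a script looked for in the same 250 bases. The sequence is chr2:114052876-114053125 of GRCm38.p6, minus strand, from RefSeq. Capitals mark a CArG box, which began 47 bases before the start, and a GGAAG match on the other strand, which began 141 bases before it.
Actc1: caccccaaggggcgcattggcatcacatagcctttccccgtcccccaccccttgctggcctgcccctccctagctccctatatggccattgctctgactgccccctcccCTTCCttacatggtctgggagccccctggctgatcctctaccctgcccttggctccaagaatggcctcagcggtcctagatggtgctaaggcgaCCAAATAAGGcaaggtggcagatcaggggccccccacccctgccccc
Only the strict form of the CArG box, CCWWWWWWGG with W for A or T, was searched. It was found in 5 of the 166 higher genes, 0 of the 96 lower genes and 439 of all 27025 genes (1.6 percent). The window of Acta2 had no strict match. Forms with a C or G within the run were not searched or marked. Examples are ccctatatgg in the windows of Acta2 and Actc1, ccttgtttgg in that of Acta2, and ccttacatgg and ccaagaatgg in that of Actc1. No full list of such forms was made.

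Paraxial and intermediate mesoderm showed 1 gene higher and 1 lower of 16. Rspo3, a secreted amplifier of Wnt signals, went from 47.0 to 140 (1.25; 0.70 with the mean of all probe sets). The paraxial factor Tcf15, which ESCs also express, went from 698 to 323 (-1.06) and by the same amount without Snail, from 1139 to 540 (-1.05). Tbx6, picked out after its values were seen, was at low signal at 24 hours, with 43.0 and 26.9. Primitive streak genes showed 1 of 20 past 2-fold. Eomes, a T-box factor of the streak and early mesendoderm, read 106, 122 and 588 in DKK + dox (2.10) and 121, 133 and 188 in DKK; a second probe set read 149 and 616. Mesp1, the cardiac mesoderm factor that Eomes precedes in the embryo, was at low signal at both times, with 28.3 and 28.6. The streak list as a whole had medians of 0.01 and -0.04, and Eomes was its single member past 2-fold. The gene T (Brachyury) had no probe set under that symbol and was not analysed here.

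**Figure D4:**
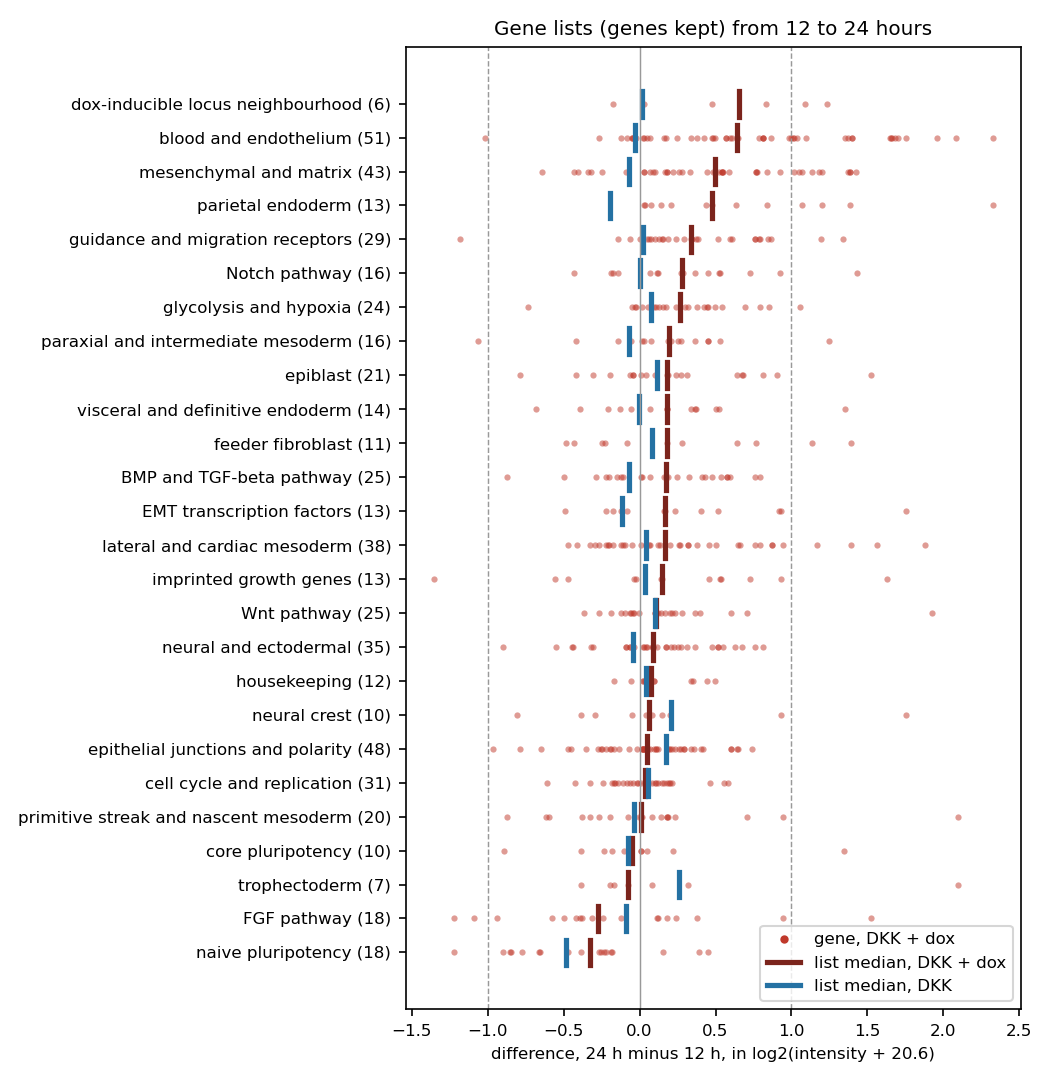
Differences between 24 and 12 hours in log2(intensity + 20.6) for 26 gene lists, with the number of genes above low signal in brackets; dots are genes in DKK + dox, dark red bars list medians in DKK + dox and blue bars list medians in DKK, and dashed lines mark 2-fold. The blood and endothelium list had a median of 0.64 with Snail and -0.03 without, and naive pluripotency genes lay below 0 in both (-0.33 and -0.49).

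Pluripotency genes took several courses. Of 10 core genes, 1 was at least 2-fold higher. Nanog read 1711 at 6 hours, 706 at 12 hours and 1827 at 24 hours in DKK + dox (1.35), and 1832, 1362 and 1791 in DKK. It was thus low at 12 hours with Snail and level with DKK at 24 hours. Pou5f1 (-0.23) and Sox2 (0.05) were near level, and Lin28a, an RNA-binding protein of pluripotent cells, read 6948 and 3726 (-0.90) with its main probe set but 1947 and 2665 (0.45) with another, so its direction is unsettled. The 18 naive pluripotency genes, which close down as ESCs leave the ground state, were lower in both conditions, with medians of -0.33 and -0.49 and 15 of 18 below 0 with Snail. Fgf4 was the single one past 2-fold, at 320 and 126 (-1.22) and at 817 and 433 in DKK (-0.88). Of its other probe sets, 1 read 257 and 108 (-1.11), 1 was level at 137 and 135 (-0.01) and 1 was at low signal, and the mean of all probe sets (-0.59) did not reach 2-fold.

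The epiblast list had 1 gene of 21 past 2-fold. Fgf5, the classical marker of the epiblast, read 106, 175 and 541 in DKK + dox (1.52) and 354, 1244 and 1821 in DKK (0.54). Its level with Snail was still under that of DKK at 24 hours, and the relative increase over the interval was the larger one. Otx2, picked out after its values were seen, had the same order, from 960 to 1699 (0.81) with Snail and from 1633 to 2177 (0.41) without. Neural and ectodermal genes had 0 of 35 past 2-fold, a median of 0.09, and Gbx2 as the member with the largest change, at 111 and 49.6 (-0.90). Of 10 neural crest genes Ets1 alone passed.

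In the Wnt list, 1 of 25 passed: Dkk1, a secreted Wnt inhibitor that mesoderm also makes, went from 109 to 472 (1.93) and from 34.5 to 20.8 in DKK. DKK protein was also added to both cultures, but the probe set reads the cells' own RNA. The Wnt target Axin2, picked out after its values were seen, was level at 79.0 and 78.5. In the Notch list, 1 of 16 passed, the target gene Hey2 from 38.9 to 140 (1.43). In the FGF list 3 of 18 passed, Fgf5 upwards and Fgf4 and the feedback inhibitor Spry4 (342 and 150, -1.09) downwards, and the median was -0.28 against -0.09 in DKK. With the mean of all probe sets per gene Fgf4 (-0.59) and Spry4 (-0.42) were under 2-fold and the median was 0.06, so the list has no settled direction. No gene of 25 in the BMP and TGF-beta list passed, and the largest change was in Gdf3, at 825 and 441 (-0.88). Guidance and migration genes had a median of 0.34, with 26 of 29 above 0 (23 after quantile scaling). Of the 29, 2 were higher, the semaphorin Sema6d (126 and 350, 1.34) and the ligand Slit2 (38.2 and 114, 1.20). The receptor Epha5 was lower (47.7 and 9.47, -1.18). With the mean of all probe sets none of these 3 was past 2-fold: Sema6d was at 0.33, Slit2 at 0.50 and Epha5 at -0.22.

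Genes of growth and metabolism were mostly level. Cell cycle genes had 0 of 31 past 2-fold and a median of 0.04, with Cdk6 changing the most (1132 and 736, -0.61). Of 24 genes of glycolysis and hypoxia, 1 passed, the oxygen sensor Egln3 (389 and 829, 1.05), and the median was 0.27 (0.07 in DKK). Housekeeping genes had a median of 0.08 and 0 of 12 past 2-fold, with B2m changing the most (1098 and 1556, 0.50). Of 13 imprinted genes, Igf2, a fetal growth factor strongly expressed in mesoderm, went from 516 to 1640 (1.63) and stood at 214 and 206 in DKK. A second Igf2 probe set was level at 61.5 and 64.7 (0.05), and the mean of both (0.84) was under 2-fold. Phlda2, a brake on placental growth, went from 1626 to 623 (-1.36) and from 1476 to 862 in DKK (-0.76).

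The Hprt gene, beside which the inducible cassette of A2lox cells is placed on the X chromosome, followed dox. It read 603, 1065 and 2293 at 6, 12 and 24 hours in DKK + dox (1.09 over the interval) and 405, 330 and 331 in DKK. Its neighbour Gpc3, a glypican also expressed in mesoderm, went from 558 to 1341 (1.23) and from 521 to 728 in DKK. The 6 measured genes around the locus had a median of 0.65 against 0.01 in DKK, and 0.30 with the 2 low-signal genes included, and whether the inserted cassette has a part in it was not tested.

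Markers of other cell types were read over the same interval, since several genes above belong to more than 1 cell type. The parietal endoderm list, which shares Sox7, Col4a1 and Col4a2 with the lists above, had a median of 0.48 against -0.20 in DKK. All 13 of 13 genes were above 0, but 11 of 13 after quantile scaling or with the arrays centred on their medians. At least 2-fold higher were 4 of 13, the fourth being Nid1 (nidogen, 273 and 656, 1.20). With the mean of all probe sets 2 of 13 were past 2-fold, and Sox7 and Nid1 (0.71) were not. Its summed intensity was 5420 at 12 hours and 7887 at 24 hours, and 4906 and 4305 in DKK. Of its defining markers, Sparc was level (2093 and 2132), Lamb1 read 1138 and 1545, Lama1 49.3 and 60.2, and Thbd 19.6 and 21.8, the last at low signal. Visceral and definitive endoderm had 1 of 14 past 2-fold, Sox17, with summed intensities of 2158 and 2407 and 2765 and 3067 in DKK. Its markers Afp (26.3 and 22.3) and Foxa2 (13.4 and 17.9) were at low signal, Ttr read 39.5 and 25.2, Hnf4a 49.6 and 78.7, Apoa1 85.9 and 114, Amn 102 and 138, and Cubn 72.7 and 114. The part of endoderm cells in the values of Sox7, Sox17 and the type IV collagens was not tested.

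Feeder fibroblasts, on which the ESCs were grown before a passage without feeders, had 2 of 11 marker genes past 2-fold, Acta2 and Col3a1 (0 of 11 with the mean of all probe sets). The summed intensity of the 11 was 2048 and 2910, and 1646 and 1765 in DKK. Col1a1 read 94.7 and 65.0, Dcn 73.6 and 58.7 and Thy1 150 and 101, and Lum and Postn were at low signal, so 5 of the 6 defining markers were not higher by 2-fold. Trophectoderm had 1 of 7 past 2-fold, Eomes; its markers Cdx2 (15.5 and 17.7), Elf5 (13.6 and 15.3), Krt7 (17.8 and 13.6) and Gata3 (10.3 and 20.2) were all at low signal, and its summed intensity was 383 and 832, and 381 and 421 in DKK. Without Eomes the sum was 262 and 244, so Eomes alone made up the difference.

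The 15 largest decreases were mostly in weakly expressed genes. Capn11, a calpain protease (-2.90), 5930403N24Rik (-2.76), Chst13 (-2.53), Ccbe1 (-2.15), Mcemp1 (-2.01), Nmu, Vdr (-1.77) and Il21 (-1.73) all read 1 at 24 hours, after values from 50.8 to 141 at 12 hours. Apod, a lipid-binding apolipoprotein, was the strongest of the others, at 296, 482 and 75.1 in DKK + dox (-2.39) and 223, 145 and 240 in DKK. Mapk15, Pde3a, Capn3, Gkn2 and Cyp2d10 lay between -2.27 and -1.72, and all 5 were higher at 24 than at 12 hours in DKK, by 0.15 to 1.08. Ccbe1 (-0.53), Il21 (-0.71), Pde3a (-0.88) and Capn3 (-0.83) were under 2-fold with the mean of all probe sets. The long noncoding RNA Rab26os went from 412 to 62.0 (-2.39) and from 343 to 91.4 in DKK (-1.70), so it was lower without Snail as well. Dnmt3l, a cofactor of DNA methylation picked out after its values were seen, had the same course in both, from 487 to 142 (-1.64) and from 514 to 142 (-1.71).

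The agreement between probe sets of a gene gives some check on these sizes. Of the 235 higher genes, 81 had another probe set above low signal in the pair; in 67 of them all others had the same sign, in 28 at least 1 was itself past 2-fold, and in 8 all had the opposite sign. Of the 123 lower genes, 15 had another such probe set, with 10 of the same sign, 3 past 2-fold and 3 opposite. A second probe set reads the same RNA sample and is no replicate of the culture.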

How the data were processed

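RNA was measured on Affymetrix MOE430_2.0 arrays, 1 per condition and time, and 1 array per group leaves no spread between replicates. The deposited values are intensities, which the authors normalized and modeled with dChip (its version is not given in the sources used here); they are linear with a lowest value of 1, held by 2.51 to 3.00 percent of the 45037 probe sets on each array, and 37.5 to 41.3 percent lay at or under 37.2. The number of arrays and this low signal limit the precision. The array and dChip treatment, the DKK treatment and the feeder step are from the study's methods; day and dox are from the labels.

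Groups were taken from the labels. Probe sets with exactly 1 gene symbol in the platform annotation (34945; 932 had several and 9160 none) were matched by Entrez ID to RefSeq genes of GRCm38.p6, of which 34741 matched and 0 symbols changed. Where a gene had several probe sets, the brightest on average was used. The offset of 20.6 and the limit of 37.2 are the 25th and 40th percentiles of all values of the 6 arrays pooled, and 3438 genes never above the limit were left out. The steps were tested on simulated data with known changes. These data had no noise between arrays, and the changes were set only in genes well above the offset. The check covers the calculation and not the behaviour of low signal or of single arrays. No test was made.

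Named are the 15 largest differences each way, list members at 2-fold or more (up to 8 each way, or the largest member), fixed marker genes, and others stated to be chosen with their values in view. The members and lists were chosen with earlier results of these data known. Alternatives changed the offset, filter, scaling, probe set and fold threshold. Promoter sequences came from a RefSeq table of GRCm38.p6, in which 166 of the 235 higher and 96 of the 123 lower genes had an entry. Python 3.11.15 with pandas 2.3.3, numpy 2.4.6 and matplotlib 3.10.9 was used. The miRNA arrays and the A2.miR200c arrays were not analysed here.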

Additional observations from a re-analysis of the deposited data

Results flagged for a closer look

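3 named genes were at least 2-fold different in opposite directions in DKK + dox and in DKK between 12 and 24 hours, and the difference between the conditions was not tested. Dmrt3 read 1 and 77.0 with dox and 124 and 33.6 without (differences of 2.18 and -1.41, apart by 3.59). Capn11 read 141 and 1 with dox and 7.30 and 50.8 without (-2.90 and 1.36, apart by -4.25). Cyp2d10 read 75.9 and 8.72 with dox and 17.0 and 58.5 without (-1.72 and 1.08, apart by -2.79). Each has at least 1 value at low signal on the arrays compared.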

How the results depend on the processing

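The counts depend on how low signal is treated. Genes at least 2-fold higher in DKK + dox numbered 156 with the offset at the pooled 40th percentile, 145 with the mean of all probe sets of a gene, 149 where both dox arrays had to exceed the limit (a setting chosen after seeing the data), 973 at 1.5-fold and 46 at 3-fold. Genes at least 2-fold lower numbered 227 with the offset at the 10th percentile, 64 at the 40th, 75 with the filter at the 60th percentile, 51 with both dox arrays above the limit, 570 at 1.5-fold and 21 at 3-fold. The corresponding DKK counts were 119, 24, 25, 23, 328 and 7 higher and 103, 23, 34, 31, 309 and 7 lower for the 10th and 40th percentile offsets, the filter, the limit on both dox arrays and the 2 thresholds, and 32 lower with the mean of all probe sets. Of 260 list medians under 10 alternatives, 255 moved by under 0.2. The FGF list changed sign with the mean of all probe sets (0.06), trophectoderm was at 0.32 with the stricter filter, feeder fibroblast at -0.086 without a filter and -0.16 with plain probe sets, and the genes around Hprt at 0.30 without a filter. Of the 68 genes named by rule that were past 2-fold, 25 were under it with the mean of all probe sets (43 kept it), 6 of 63 with plain probe sets, 3 with the offset at the 40th percentile, 2 with quantile scaling (Kdr and Egln3) and 1 with the arrays centred on their medians (Kdr). With plain probe sets Calcrl (-0.36), Acta2 (-0.17) and Pdgfrb (-0.17) changed sign, and Aplnr (0.78), Col3a1 (0.58) and Adam28 (0.14) were under 2-fold; the probe sets without a suffix that replace the first 3 read at low signal in DKK + dox. The cause of the other shifts was not tested. Quantile scaling moved the median of all genes from 0.03 to -0.03. No paired analysis was possible because each condition and time is 1 array, and for the same reason no replicate could be left out.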

Other observations

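Outside the lists, 4 genes chosen with their values known were higher at 24 than at 12 hours of Snail. Serpinh1, the collagen chaperone, went from 743 to 1814 (1.26) and stood at 382 and 376 in DKK. The growth factors Gas6 and Ptn went from 233 to 930 (1.91) and from 375 to 954 (1.30), against 176 and 202, and 323 and 380, in DKK. Cpe, a carboxypeptidase of the secretory pathway, went from 1255 to 3449 (1.44) and stood at 771 and 899 in DKK.

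Host genes of small nucleolar RNAs (Snhg genes), also chosen after their values were seen, were mostly lower. Of 14 Snhg genes above low signal, 12 were lower at 24 hours with Snail (median -0.44) and 10 in DKK (median -0.11). Snhg4 went from 1231 to 397 (-1.58) and Snhg7 from 423 to 139 (-1.47), with -0.89 and -1.21 in DKK. The related host gene Dancr went from 989 to 391 (-1.29; -0.82 in DKK), while Gas5 was near level (4932 and 4354, -0.18).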
